A study of Mus musculus with 34 samples.

Results

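Phosphorylase kinase is the enzyme that switches on glycogen breakdown, and its subunit genes were followed here through the muscles and livers of mice that lack or overexpress muscle glycogen synthase. The 5 genes Phka1, Phka2, Phkb, Phkg1 and Phkg2 were chosen by symbol, and every probe set that the platform annotation assigns to them was taken: 9 of the 22690 probe sets on the array, which carry 12394 gene symbols. A probe set is a group of short oligonucleotides that are read together as 1 value. Whether each probe set reads only its own gene was not tested. Phka1 has 3 probe sets (1422743_at, 1422744_at and 1435567_at), Phka2 has 2 (1430492_at and 1434518_at), Phkg1 has 2 (1422315_x_at and 1425164_a_at), and Phkb (1434511_at) and Phkg2 (1428511_at) have 1 each.

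The series holds 34 Affymetrix arrays of mouse RNA. Muscle glycogen synthase knockout (KO) and wild-type (WT) mice of 3 months gave anterior tibialis, a fast hindlimb muscle (4 KO and 4 WT arrays), medial gastrocnemius, a calf muscle (3 KO and 5 WT), and liver (4 KO and 4 WT). GSL30 mice, a line that overexpresses glycogen synthase in muscle, gave gastrocnemius at 8 months (5 GSL30 and 5 WT arrays). The labels give the strain as C57BL6/129SV for the tibialis samples. They name no animal behind an array, so p-values measure the spread between these arrays, which may be technical. The GSL30 mice are 1 transgenic line whose transgene, from general knowledge of the line, is driven by the muscle creatine kinase promoter.

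Phosphorylase kinase is built of alpha, beta, gamma and delta subunits. The gamma subunit carries the catalytic site and phosphorylates glycogen phosphorylase, which then releases glucose units from glycogen; the alpha and beta subunits are regulatory and are phosphorylated by protein kinase A downstream of adrenaline or glucagon, and the delta subunit binds calcium. Phka1 and Phkg1 encode the alpha and gamma isoforms that predominate in muscle, Phka2 and Phkg2 those that predominate in liver, and Phkb is shared by both tissues. Inherited defects in these subunits cause glycogen storage disease of muscle, of liver or of both.

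In the RefSeq annotation of GRCm38.p6, Phka1 lies on chromosome X (102513975 to 102644301), as does Phka2 (160501904 to 160598879), while Phkb is on chromosome 8 (85840853 to 86064251), Phkg1 on chromosome 5 (129863431 to 129879134) and Phkg2 on chromosome 7 (127573345 to 127583307). The catalytic pair is shown because its members had opposite tissue patterns on the arrays. The alpha pair, Phka1 and Phka2, had opposite patterns as well, and its sequences are not shown. The stretches below are the upstream bases of the RefSeq windows of 300 bases around each start (250 before, 50 after), cut where the annotated gene begins, with every E-box (CANNTG, a motif bound by muscle regulatory factors among others, which reads the same on both strands) in capitals. The first is chr5:129879135-129879338 on the minus strand and the second chr7:127573098-127573344 on the plus strand.
Phkg1: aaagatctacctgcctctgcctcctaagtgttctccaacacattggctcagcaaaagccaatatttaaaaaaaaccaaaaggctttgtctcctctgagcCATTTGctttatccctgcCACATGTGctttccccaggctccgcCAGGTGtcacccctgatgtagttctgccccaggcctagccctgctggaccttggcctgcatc
Phkg2: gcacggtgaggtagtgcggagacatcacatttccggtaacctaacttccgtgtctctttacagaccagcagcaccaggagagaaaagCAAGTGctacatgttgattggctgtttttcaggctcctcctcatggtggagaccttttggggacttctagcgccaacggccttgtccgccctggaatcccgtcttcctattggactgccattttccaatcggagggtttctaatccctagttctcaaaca

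The printed Phkg1 stretch of 204 bases holds 4 E-boxes, 2 of which overlap, and the printed Phkg2 stretch of 247 bases holds 1. Over the full window Phkg1 has 5 E-boxes, a number that 2.10% of the 32851 RefSeq promoter windows reach, whereas 72.3% of windows hold at least 1. Phka1 has 2, Phkb and Phkg2 have 1 each and Phka2 has 0. The Phkg1 window is also poor in CpG, with 2 against 11 in Phkg2, 23 in Phka2, 25 in Phka1 and 38 in Phkb, and 23.3% of all windows have as few. GC boxes (GGGCGG, either strand) number 3 in Phka1, 3 in Phka2, 2 in Phkb and 2 in Phkg2, and Phkg1 has 0; 35.7% of windows hold at least 1. CCAAT boxes (CCAAT, either strand) number 3 in Phkg1 and 4 in Phkg2, against 37.4% of windows with at least 1. These matches describe the letters of the windows only.

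Array intensities were on a linear scale with a 2% trimmed mean near 1000 on every array (1000.3 to 1000.5), and medians from 296 to 440. Gys1, the disrupted gene, checked the labels of the muscle arrays. Its brightest probe set read 34.2 to 72.5 in KO tibialis against 9271 ± 772 in WT (SD, n = 4), 96.7 ± 59.3 in KO gastrocnemius (n = 3) against 5033 ± 948 (n = 5), and 9115 ± 935 in GSL30 against 6285 ± 553 (n = 5 and 5). In liver the same probe set read 18.6 to 60 in KO and 42.2 to 72.2 in WT, with overlap, so it did not check the liver labels. The gastrocnemius arrays also carried liver transcripts. Over 472 probe sets that are bright in liver and low in tibialis, the 5 WT gastrocnemius arrays of 3 months stood at 17.8, 25.5, 5.66, 26.9 and 3.03% of the WT liver level and the 3 KO arrays at 8.26, 3.80 and 2.90%, against 1.13 to 2.70% in the 8-month arrays and 0.883 to 1.39% in tibialis. The WT 3-month array 2 also stood apart in its myofibre markers, with a score (the mean log2 value of 10 markers) of 16.9 against a lowest array of 15.0 in its group. All 12 hepatocyte markers had a probe set, and their summed intensity ran from 44484 to 724788 in WT and from 40511 to 158611 in KO gastrocnemius of 3 months. In WT liver it was 603798 to 665292, so the highest gastrocnemius sum lay above liver itself. The marker Alb read 245380 on WT array 2 of 3 months, against 57277 to 66886 in WT liver. Where the gastrocnemius arrays with liver transcripts moved a result of 3 months, its value without the arrays over 10% of the liver level (3 WT) or over 5% (4 WT and 1 KO) is given beside it.

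**Figure D1:**
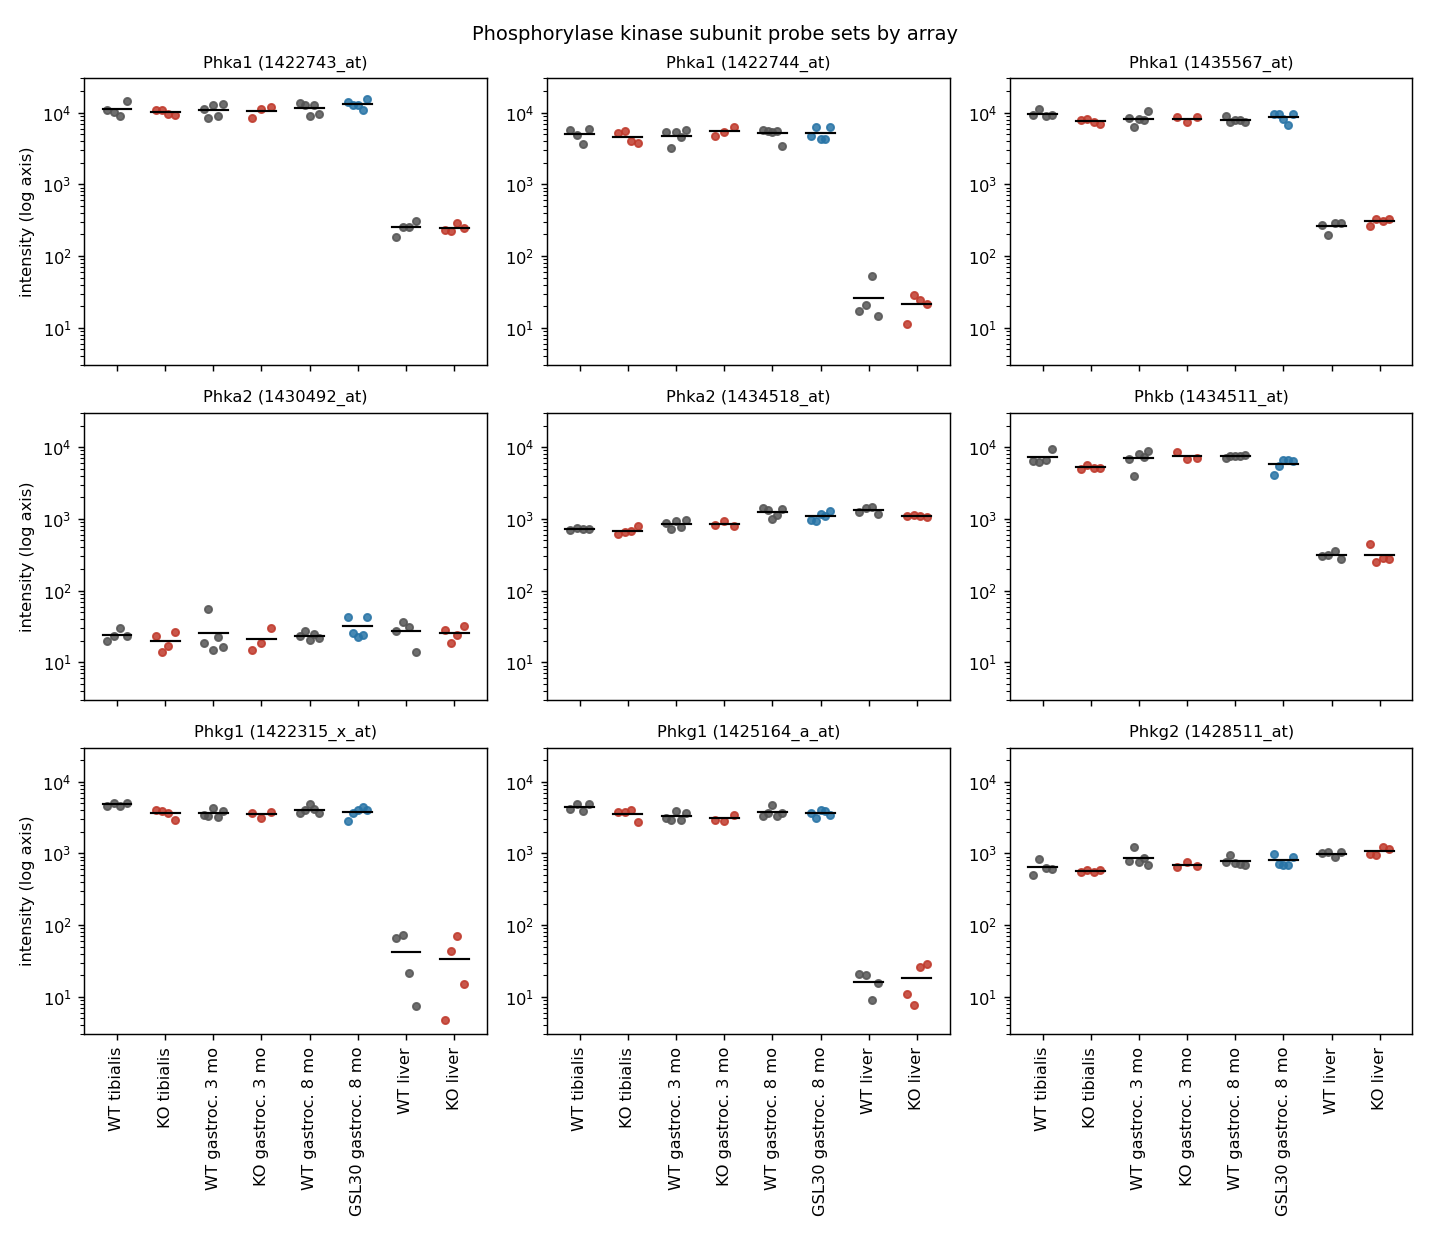
Intensity of each of the 9 phosphorylase kinase probe sets on every array (points, log axis) in the 8 groups, with group means as bars. Phka1, Phkb and Phkg1 sit high in all 6 muscle groups and low in both liver groups, Phka2 1434518_at and Phkg2 are highest or near-highest in liver, and Phka2 1430492_at lies between 13.8 and 55.1 in every array.

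Between wild-type liver and tibialis the muscle and liver isoforms went in opposite directions. All 8 member probe sets tested differed between liver and tibialis at an adjusted p under 0.05 (limma, Benjamini-Hochberg over 13576 probe sets), 6 lower and 2 higher in liver, where 69.4% of all probe sets tested were also called, so the calls alone say little about these genes. Phka1, Phkb and Phkg1 were lower in liver and Phka2 and Phkg2 were higher. Of the lower ones, Phka1 1422744_at and both Phkg1 probe sets passed the dim filter only through tibialis. Their calls therefore carry no weight of their own. In such bulk samples fewer cells of a type and less RNA per cell cannot be told apart. Tissue also cannot be told apart from the code in the sample titles or from the starting amount of RNA, which was about 5 µg for muscle and 10 µg for liver. Scaling the arrays to a common median moved the median of all probe sets by 0.18 in this comparison, by 0.31 between liver and gastrocnemius and by -0.14 between gastrocnemius and tibialis, and no called member changed direction under it.

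Phka1, the muscle alpha subunit, read 11001, 10240, 8893 and 14438 in the 4 WT tibialis arrays at 1422743_at and 187, 257, 258 and 307 in WT liver. The groups were far apart, with a liver mean of 2.26% of the tibialis mean and a log2 difference of -5.20 ± 0.18 (SE, limma adjusted p = 1.35e-09). The probe set 1435567_at was at 2.69% (log2 difference -4.98) and 1422744_at at 0.517% (log2 difference -6.07). At 1422744_at the liver values of 14.4 to 52.2 lie in the dimmest part of the array, where background rather than transcript can set the ratio.

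Phkb, the shared beta subunit, read 6478, 6287, 6688 and 9415 in WT tibialis and 307, 311, 357 and 277 in WT liver. The liver mean of 313 ± 33.3 was 4.34% of the tibialis mean of 7217 ± 1475 (SD, n = 4 and 4), a log2 difference of -4.31 ± 0.15 (SE, limma adjusted p = 1.76e-09). The gene common to both tissues was thus itself 23.1-fold lower in liver on this probe set. The array holds a single Phkb probe set, and whether it reads every transcript form of the gene was not tested.

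Phkg1, the muscle catalytic subunit, read 4602, 5127, 4589 and 4976 in WT tibialis at 1422315_x_at and 65.5, 73.9, 21.4 and 7.5 in WT liver. The second probe set, 1425164_a_at, read 3881 to 4918 in tibialis and 9.1 to 20.5 in liver. Liver means were 0.872% and 0.363% of the tibialis means, with log2 differences of -5.80 ± 0.23 and -6.09 ± 0.13 (SE). Both probe sets passed the dim filter here only through tibialis, so no p is given for them. These liver values are again among the dimmest on the array, at a median percentile of 15.1 and 7.34.

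Phka2, the liver alpha subunit, read 1247, 1413, 1471 and 1176 in WT liver at 1434518_at and 708, 737, 726 and 717 in WT tibialis. Liver was 1.84-fold higher with no overlap, a log2 difference of 0.83 ± 0.11 (SE, limma adjusted p = 7.16e-05). The other Phka2 probe set, 1430492_at, stayed between 13.8 and 55.1 on every array, passed the dim filter in no comparison and shows no tissue pattern. Phkg2, the liver catalytic subunit, read 1008, 1038, 906 and 1037 in WT liver and 496, 836, 630 and 603 in WT tibialis. Liver was 1.56-fold higher with no overlap, a log2 difference of 0.62 ± 0.15 (SE, limma adjusted p = 0.00406). The liver isoforms therefore stayed above the dim filter in muscle, whereas Phkg1 and 1 of the 3 Phka1 probe sets lay at the dim end of the array in liver.

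Against WT gastrocnemius of 3 months, 7 of 8 member probe sets were called in liver, 6 lower and 1 higher, beside 62.9% of all probe sets. Among the lower ones, Phka1 1422744_at and both Phkg1 probe sets passed the dim filter only through gastrocnemius, so their calls carry no weight of their own. Phka2 1434518_at was 1.56-fold higher in liver (log2 difference 0.61 ± 0.13 SE, limma adjusted p = 0.00165), and that call was lost (0.45, adjusted p = 0.0837) when gastrocnemius arrays over 5% of the liver level were left out, which leaves 1 WT array. Phkg2 had a mean of 997 ± 62.8 in liver (n = 4) and 860 ± 207 in gastrocnemius (n = 5) and was not called (log2 difference 0.23, 95% interval -0.12 to 0.58, limma adjusted p = 0.234). Without the WT array 2, whose Phkg2 value of 1212 was the highest of its group, the difference was 0.35 (limma adjusted p = 0.0149), and without the 3 arrays over 10% of the liver level it was 0.45 (limma adjusted p = 0.0126).

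The order of the group means split muscle from liver without overlap for Phka1, Phkb and Phkg1, but not for Phka2 or Phkg2. For Phka1, Phkb and Phkg1 every muscle group lay above both liver groups without overlap, and the neighbouring muscle groups overlapped in range. The share of all probe sets that split in this way was not counted. Between WT liver and WT muscle of 3 months 69.4% (tibialis) and 62.9% (gastrocnemius) were called, so the split alone says little about these genes. Phka1 1422744_at and both Phkg1 probe sets were also dim in WT liver, with means of 26.1, 42.1 and 16.3. For Phka2 1434518_at the order was WT liver at 1327, WT gastrocnemius of 8 months at 1254, KO liver at 1094, GSL30 gastrocnemius at 1093, WT and KO gastrocnemius of 3 months at 852 each, WT tibialis at 722 and KO tibialis at 684, and the only neighbours whose ranges did not overlap were KO gastrocnemius and WT tibialis. For Phkg2 it was KO liver at 1085, WT liver at 997, WT gastrocnemius of 3 months at 860, GSL30 at 798, WT gastrocnemius of 8 months at 777, KO gastrocnemius at 689, WT tibialis at 641 and KO tibialis at 570, with every neighbouring pair overlapping.

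The isoform balance, the log2 value of the muscle isoform minus that of the liver isoform on the same array, compared the subunits within arrays (brightest probe set of each gene). Only its differences between groups are read, because probe sets differ in brightness for the same amount of RNA. The alpha balance was 3.83 ± 0.30 in WT tibialis and -2.20 ± 0.29 in WT liver (SD, n = 4 and 4), a shift of 6.03 log2 units. The gamma balance was 2.84 ± 0.24 and -3.58 ± 0.52, a shift of 6.42. The size of the gamma shift depends on the pseudocount, since Phkg1 lay at the dim end of the array in liver. It was 4.91 with a pseudocount of 200 and 7.93 with a pseudocount of 1, against 5.36 and 6.33 for the alpha shift, so that the order of the 2 shifts turned and their sizes cannot be compared. Among muscle groups the alpha balance ran from 3.14 ± 0.25 in WT gastrocnemius of 8 months to 3.83 in WT tibialis, and the gamma balance from 2.04 ± 0.43 in WT gastrocnemius of 3 months to 2.84 in WT tibialis. The KO groups stood at 3.80 ± 0.25 and 2.55 ± 0.23 in tibialis (alpha and gamma), 3.55 ± 0.29 and 2.27 ± 0.23 in gastrocnemius, and -1.96 ± 0.15 and -3.83 ± 0.46 in liver. GSL30 gastrocnemius stood at 3.54 ± 0.23 and 2.18 ± 0.45 (n = 5).

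**Figure D2:**
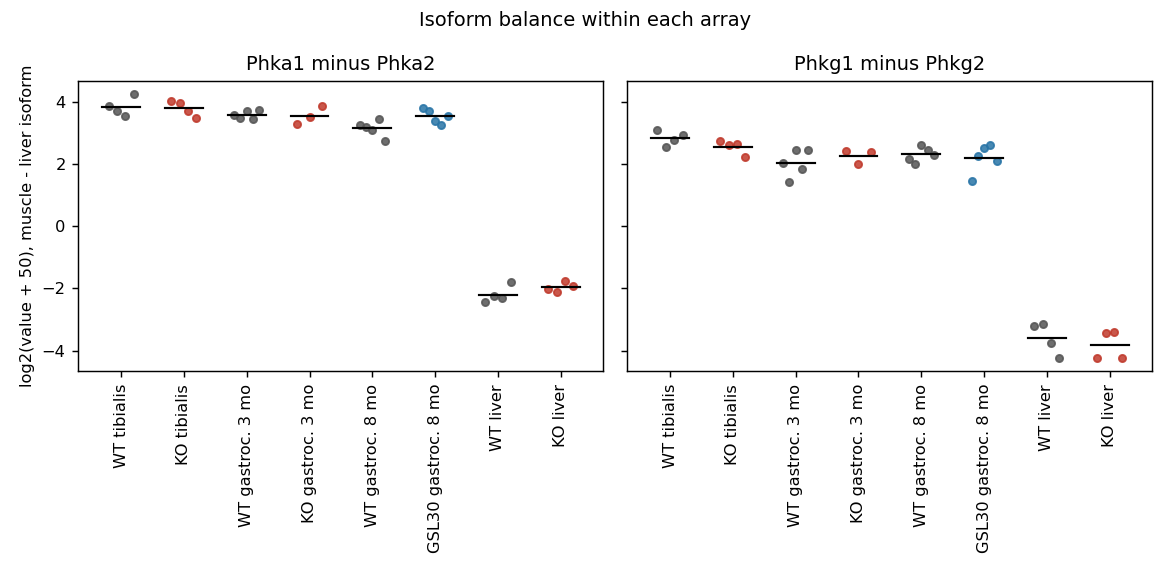
Isoform balance on every array (points; bars are group means), as log2(value + 50) of the muscle isoform minus the liver isoform, for the alpha pair (left) and the gamma pair (right). In both panels every muscle array lies above every liver array; the sign of a balance has no meaning, and mutant and wild-type groups of a tissue overlap.

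The knockout comparisons ask whether loss of muscle glycogen synthase goes with a change in the kinase that drives glycogen breakdown. In KO tibialis 0 of 8 member probe sets passed the test, where 1.4% of all probe sets did. Before adjustment 3 had a p under 0.05, against 15% of all probe sets, and in the same 3 every KO array lay below every WT array, against 4.88% of all probe sets that were lower without overlap. They belonged to 3 of the 5 genes: 1 of 3 probe sets of Phka1, the Phkb probe set and 1 of 2 of Phkg1.

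Phkg1 1422315_x_at read 4010, 3868, 3658 and 2909 in KO tibialis against 4602, 5127, 4589 and 4976 in WT. Every KO value lay below the lowest WT value, and the log2 difference was -0.42 ± 0.12 (SE), with a 95% interval from -0.70 to -0.14 and a limma adjusted p = 0.157. The second Phkg1 probe set read 3751, 3761, 4055 and 2702 against 4215, 4915, 3881 and 4918. Its groups overlapped through 1 WT and 1 KO array, and the log2 difference was -0.33 ± 0.15 (limma adjusted p = 0.339).

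Phkb read 5036, 5696, 5160 and 5089 in KO tibialis against 6478, 6287, 6688 and 9415 in WT. The KO mean was 72.7% of the WT mean, with a log2 difference of -0.44 ± 0.14 (SE), a 95% interval from -0.76 to -0.12 and a limma adjusted p = 0.191. WT array 4 was high, and without it the difference was -0.30 (limma adjusted p = 0.144), with every KO value still below every WT value.

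Phka1 1435567_at read 7865, 8229, 7363 and 6964 in KO tibialis against 9340, 11175, 9043 and 9338 in WT. These ranges did not overlap, and the log2 difference was -0.35 ± 0.11 (SE, 95% interval -0.60 to -0.098, limma adjusted p = 0.187). The other Phka1 probe sets gave -0.11 ± 0.15 and -0.13 ± 0.19 with overlapping groups, so the 3 probe sets of the gene differed in size. Phka2 1434518_at read 612, 655, 679 and 791 against 708, 737, 726 and 717 (log2 difference -0.078, 95% interval -0.32 to 0.16). Phkg2 read 558, 596, 546 and 583 against 496, 836, 630 and 603 (log2 difference -0.13, 95% interval -0.46 to 0.19). Both intervals include no difference, and that of Phkg2 also includes a decrease as large as the one of Phkb. Beside these values, the 10 myofibre markers had a median log2 difference of -0.036 with 0 called, and the endothelial markers one of 0.47 with 0 of 6 called. Of the 6 slow fibre markers 1, Myl3, was called higher in KO tibialis, and their summed intensity was 35420 to 43844 in KO against 10809 to 18164 in WT, without overlap, while their median log2 difference was -0.17. The part of these markers in the subunit values was not tested.

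**Figure D3:**
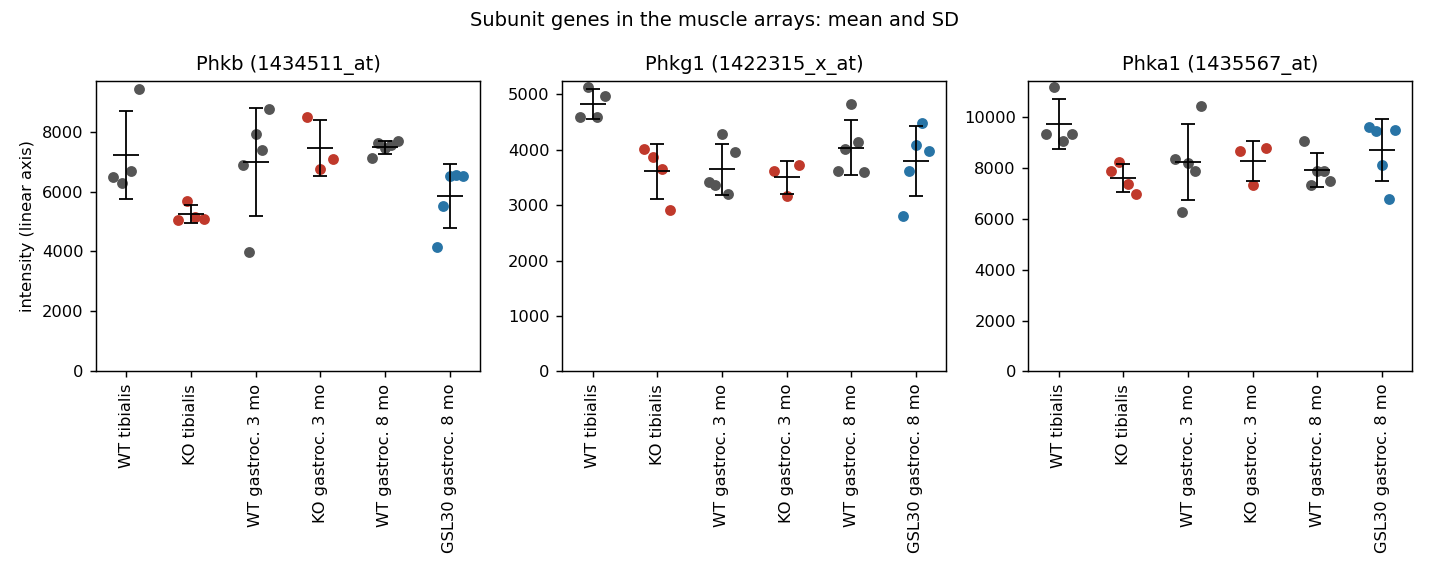
Intensity (linear axis from 0) of Phkb, Phkg1 1422315_x_at and Phka1 1435567_at on each muscle array (points), with mean and SD. In tibialis the 4 KO arrays lie below the 4 WT arrays for all 3 probe sets, and in gastrocnemius of 3 months the KO and WT arrays overlap; Phkb in the 5 GSL30 arrays lies below the 5 WT arrays.

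In KO gastrocnemius 0 of 8 member probe sets passed the test, beside 0.147% of all, and 0 had an unadjusted p under 0.05, against 11.4% of all. None was lower without overlap, against 2.72% of all probe sets. Phkb read 8501, 6739 and 7075 in KO against 6885, 3994, 7911, 7395 and 8753 in WT. The groups overlapped, the low WT value being array 2, and the log2 difference was 0.13 with a 95% interval from -0.42 to 0.68 (limma adjusted p = 0.845). Its sign turned to -0.17 without the 3 WT arrays over 10% of the liver level and to -0.34 without all arrays over 5%. Phkg1 1422315_x_at read 3625, 3168 and 3728 in KO against 3425, 3362, 4286, 3195 and 3959 in WT (log2 difference -0.050, 95% interval -0.37 to 0.27). The second Phkg1 probe set gave -0.084 (95% interval -0.42 to 0.25). Without the arrays over 10% of the liver level the 2 probe sets gave -0.23 and -0.28, and without those over 5% they gave -0.20 and -0.21, again not called (limma adjusted p from 0.735 to 0.890). Phka1 1435567_at read 8651, 7350 and 8801 against 8357, 6251, 8212, 7865 and 10442 (log2 difference 0.022, 95% interval -0.37 to 0.41), and the other Phka1 probe sets gave -0.035 (1422743_at) and 0.21 (1422744_at) with overlapping groups. Without the arrays over 10% these 3 were -0.17, -0.32 and -0.0058, and without those over 5% they were -0.37, -0.19 and 0.048. Phka2 1434518_at averaged 852 in both groups, and its log2 difference of 0.0036 became -0.15 and -0.14 at the same limits. Phkg2 read 643, 753 and 670 in KO against 795, 1212, 751, 862 and 682 in WT (log2 difference -0.28, 95% interval -0.69 to 0.14, limma adjusted p = 0.557), and the difference was -0.054 and 0.055 at those limits. The 3 WT arrays that carried most liver transcript held the highest Phkg2 values. The highest of these, 1212 on array 2, was also above the WT liver values of 906 to 1038. The hepatocyte marker score was 11.9 in KO and 13.4 in WT (exact two-sided permutation p = 0.214 over 56 arrangements), and its part in these values was not tested beyond the fits given. The slow fibre marker score was 13.2 in KO and 12.2 in WT, with 1 of 6 markers (Myl3) called higher.

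**Figure D4:**
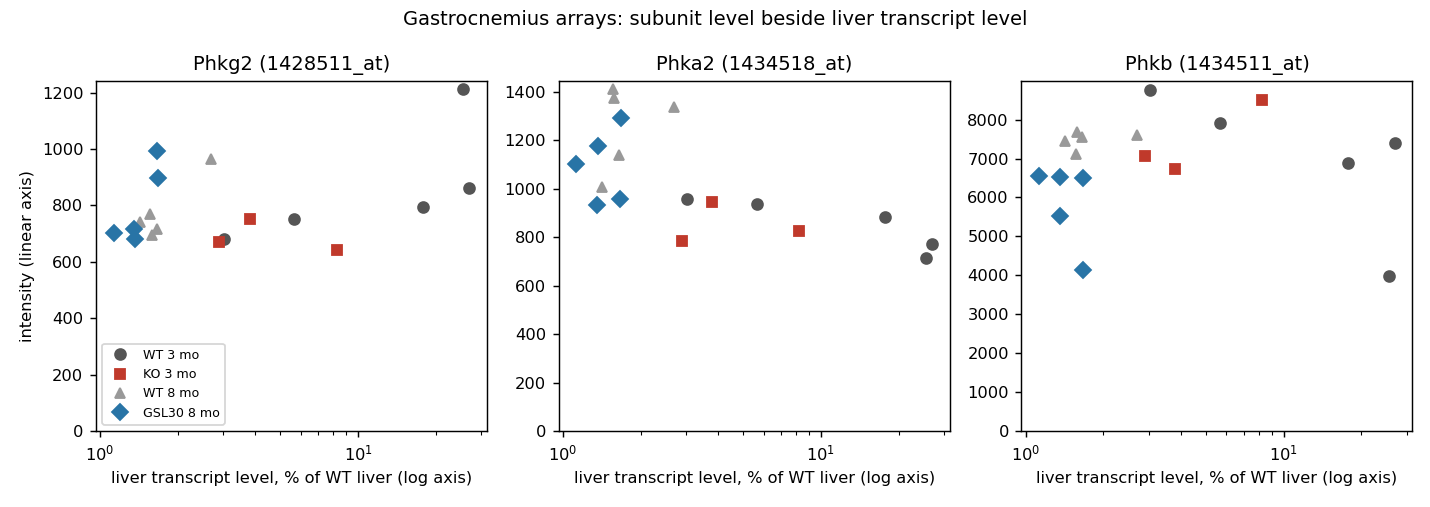
Intensity (linear axis) of Phkg2, Phka2 1434518_at and Phkb on each gastrocnemius array beside that array's liver transcript level, in percent of WT liver (log axis). The array with the highest Phkg2 value (1212) and the lowest Phkb value (3994) carries 25.5% of the liver level, while the array with the highest liver level (26.9%) has a Phkb value of 7395, above its group mean of 6988.

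Whether the knockout effect differed between the muscles was tested directly, since a p on either side of a threshold does not show it. For 0 of 8 member probe sets did the gastrocnemius effect differ from the tibialis effect (0.0147% of all probe sets). Phkb gave the largest difference, 0.57 ± 0.29 (SE, 95% interval -0.048 to 1.19, not called by limma), but only 0.27 without the arrays over 10% of the liver level and 0.098 without those over 5%. Phkg1 1422315_x_at and Phka1 1435567_at both gave 0.37 (limma adjusted p = 0.506 and 0.538). At the 10% limit these were 0.19 and 0.18, and at the 5% limit 0.22 and -0.024.

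In KO liver 0 of the 5 member probe sets tested passed, beside 0.00737% of all (1 of 13576). Phka2 1434518_at, the liver alpha subunit, read 1088, 1129, 1092 and 1068 in KO against 1247, 1413, 1471 and 1176 in WT. All 4 KO values lay below the lowest WT value, which was the case for 2.41% of all probe sets, and it was the only 1 of the 5 with an unadjusted p under 0.05, against 8.33% of all. The log2 difference was -0.26 ± 0.11 (SE, 95% interval -0.50 to -0.021, limma adjusted p = 0.573). Phkg2 read 979, 964, 1228 and 1168 in KO against 1008, 1038, 906 and 1037 in WT (log2 difference 0.11, 95% interval -0.15 to 0.37). Phkb read 451, 249, 282 and 275 against 307, 311, 357 and 277 (log2 difference -0.021, 95% interval -0.39 to 0.35). Phka1 gave -0.022 at 1422743_at and 0.21 at 1435567_at, both with overlap. Phka1 1422744_at and both Phkg1 probe sets were below the dim filter in liver, with KO values of 11.3 to 29.1, 4.8 to 69.8 and 7.8 to 28.4. These 3 passed the filter over both tissues only through tibialis and have no measurable liver effect. Of the other 5 member probe sets, 0 had a liver effect that differed from the tibialis effect (0.744% of all). Phka1 1435567_at had the smallest p of the 5, with a difference of 0.56 ± 0.17 (SE, 95% interval 0.19 to 0.93, limma adjusted p = 0.184).

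GSL30 gastrocnemius addresses the opposite change, an excess of glycogen synthase. Again 0 of 8 member probe sets passed the test, where 4.31% of all did. Phkb was the 1 member with an unadjusted p under 0.05, a share of the 8 below the 21.4% of all probe sets, and the 1 member lower without overlap (3.59% of all probe sets). It read 4136, 5517, 6524, 6562 and 6511 in GSL30 against 7105, 7606, 7447, 7550 and 7673 in WT. The WT arrays were tightly grouped at 7476 ± 223 and the GSL30 arrays spread to 5850 ± 1054 (SD, n = 5 and 5), with a log2 difference of -0.37 ± 0.14 (SE, 95% interval -0.67 to -0.073, limma adjusted p = 0.142). Without the lowest GSL30 array the difference was -0.25 (limma adjusted p = 0.233).

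The muscle catalytic subunit Phkg1 read 2807, 3621, 4084, 4492 and 3977 in GSL30 against 3625, 4023, 4821, 4136 and 3606 in WT at 1422315_x_at, with overlapping groups (log2 difference -0.099, 95% interval -0.41 to 0.21), and the second probe set gave -0.036 (95% interval -0.31 to 0.24). The 3 Phka1 probe sets gave log2 differences of 0.20, 0.0094 and 0.13, all with overlap. Phka2 1434518_at read 957, 933, 1175, 1104 and 1294 against 1410, 1337, 1008, 1142 and 1375 (log2 difference -0.19, 95% interval -0.48 to 0.10). Phkg2 read 994, 715, 681, 701 and 898 against 769, 966, 742, 717 and 693 (log2 difference 0.029, 95% interval -0.27 to 0.33). In the same arrays 6 of 6 slow fibre markers, 3 of 6 endothelial, 3 of 3 smooth muscle, 3 of 7 hepatocyte and 1 of 2 Schwann cell markers tested were called lower in GSL30. Of the 10 myofibre markers 1, Des, was called higher and 0 lower, with a median log2 difference of 0.20. Of the macrophage, adipocyte and erythroid markers 0 were called. The hepatocyte score was 7.79 in GSL30 and 9.02 in WT, and an exact permutation over 252 arrangements gave a two-sided p = 0.00794, which is as low as it can go. With that score as covariate the Phkb difference was -0.38 (limma adjusted p = 0.379). The score did not overlap between GSL30 (7.42 to 8.29) and WT (8.39 to 10.3), and with it 0 of all probe sets were called. A call lost in that fit is therefore no finding about its gene. The GSL30 effect differed from the knockout effect in gastrocnemius in 0 of 8 member probe sets (2.3% of all); for Phkb that difference was -0.50 ± 0.27 (SE, limma adjusted p = 0.342), and -0.20 and -0.032 without the 3-month arrays over 10% and over 5% of the liver level.

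**Figure D5:**
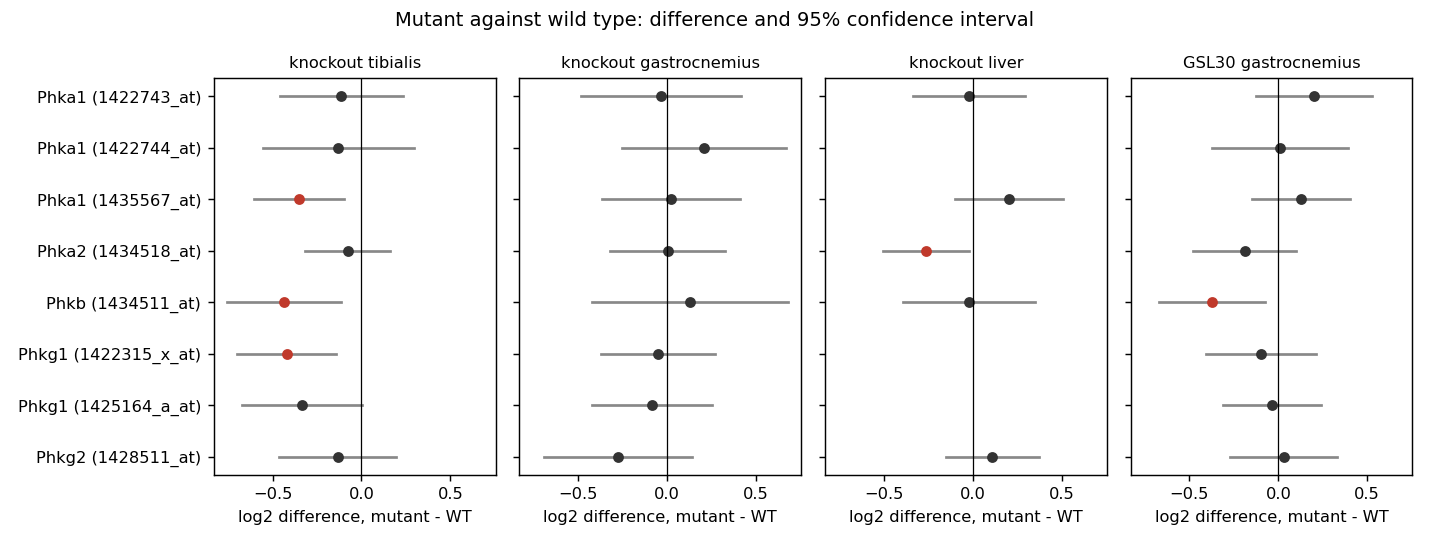
Log2 difference between mutant and wild type with its 95% confidence interval for the member probe sets tested in each of the 4 mutant comparisons; red points have an unadjusted p under 0.05, and none passed adjustment. The red points are Phka1 1435567_at, Phkb and Phkg1 1422315_x_at in KO tibialis, Phka2 1434518_at in KO liver and Phkb in GSL30, all below 0.

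Between WT gastrocnemius and tibialis at 3 months 2 of 8 member probe sets were called, both of Phkg1, the muscle catalytic subunit, and both lower in gastrocnemius. With 27% of all probe sets called, this share is near the background and is not a result about the subunits. Phkg1 1422315_x_at read 3425, 3362, 4286, 3195 and 3959 in gastrocnemius, all below the 4589 to 5127 of tibialis, at 75.6% of its mean (log2 difference -0.41 ± 0.12 SE, limma adjusted p = 0.0349). The second probe set read 2880 to 3852 against 3881 to 4918, at 73.4% (log2 difference -0.44 ± 0.14 SE, limma adjusted p = 0.0370). Both calls were lost without the 3 WT gastrocnemius arrays over 10% of the liver level, when the differences were -0.22 and -0.25 (limma adjusted p = 0.290 and 0.311). They were lost also without gastrocnemius array 1 alone (-0.39 and -0.43), without gastrocnemius array 4 (-0.36 and -0.40), and without tibialis array 1, 2 or 4. Without tibialis array 3 only the first was lost (-0.43), and without gastrocnemius array 2 only the second (-0.40).

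With age, 1 of 8 member probe sets was called between WT gastrocnemius of 8 and 3 months, beside 6.19% of all. Phka2 1434518_at read 1410, 1337, 1008, 1142 and 1375 at 8 months against 884, 714, 937, 771 and 956 at 3 months. Every older value lay above every younger one, and the difference was 1.47-fold (log2 difference 0.53 ± 0.13 SE, limma adjusted p = 0.0391). The call was lost without any 1 of 7 arrays (replicates 1, 2 and 4 of the younger group and 1, 2, 4 and 5 of the older), with differences from 0.47 to 0.56, and without the 3 younger arrays over 10% of the liver level (0.38, limma adjusted p = 0.367). The title code changes with age, so code and age cannot be told apart. Adipocyte markers (3 of 5 with a probe set) stood at a score of 12.8 at 8 months and 12.0 at 3 months, and macrophage markers at 11.03 and 10.47. Endothelial markers stood at 11.1 and 10.6, smooth muscle at 10.6 and 10.1, Schwann cell at 10.8 and 10.5 and slow fibre at 12.5 and 12.2. Hepatocyte markers stood at 9.02 and 13.4, myofibre at 15.6 and 15.6 and erythroid at 8.86 and 8.87. The part of these markers in the Phka2 difference was not tested.

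Over the 26 muscle arrays the probe sets of 1 gene followed each other to differing degrees, as descriptions over arrays of 6 groups that share tissue and processing. The 2 Phkg1 probe sets had r = 0.82. For Phka1, 1422743_at and 1422744_at had r = 0.68, 1422744_at and 1435567_at r = 0.54, and 1422743_at and 1435567_at r = 0.46. Between genes of the muscle enzyme, Phkb and Phkg1 1422315_x_at had r = 0.46 (0.51 within groups), Phka1 1422743_at and Phkb r = 0.20, and Phka1 1422743_at and Phkg1 1422315_x_at r = 0.10. Phkb and Phkg2 had r = -0.22, and -0.65 within groups. The dim Phka2 probe set 1430492_at had r = -0.72 with Phkb and 0.72 with Phkg2 within groups. WT gastrocnemius array 2 of 3 months held the lowest Phkb value of the muscle arrays and the highest of Phkg2 and 1430492_at. The part of that array in these r values was not tested.

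The genes around the kinase were taken from lists of its inputs, substrates and opponents: 66 genes, 54 with a probe set and 39 to 50 tested per mutant comparison. In KO tibialis 1 was called higher and 2 lower of 50, in KO gastrocnemius 2 lower of 49, in KO liver 0 of 39 and in GSL30 2 higher and 3 lower of 50, where 1.4%, 0.147%, 0.00737% and 4.31% of all probe sets were called. Their median log2 differences were 0.042, 0.13, 0.029 and 0.11, beside 0.039, 0.045, 0.024 and 0.025 over all probe sets tested. Gys1, itself a substrate of the kinase, accounts for 1 call in each muscle comparison, read at its brightest probe set only. Its GSL30 call there (log2 difference 0.53) was lost with a common median (0.48, limma adjusted p = 0.0532). With the hepatocyte score as covariate the call was lost too (0.52, limma adjusted p = 0.192), in a fit where 0 of all probe sets were called. It was lost also without the dim filter (limma adjusted p = 0.0564) and without WT array 1 or 3 or GSL30 array 1, 2 or 5. A second Gys1 probe set read 6619 ± 1488 (SD) in GSL30, from 5226 to 8338. In WT of 8 months it read 2281 ± 1242, from 289 to 3332, so the groups did not overlap. No test of that probe set is given.

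Ppp1r1a, an inhibitor of protein phosphatase 1, the enzyme that reverses the kinase's action, was the other gene called in all 3 muscle comparisons. It fell from 1806 ± 123 to 181 ± 70.6 in KO tibialis (log2 difference -3.05 ± 0.20 SE, limma adjusted p = 0.000182) and from 1561 ± 419 to 441 ± 64.6 in KO gastrocnemius (-1.68 ± 0.23 SE, limma adjusted p = 0.0392). In GSL30 it rose from 1998 ± 399 to 3339 ± 482 (0.74 ± 0.16 SE, limma adjusted p = 0.0267). The KO gastrocnemius call was lost without the arrays over 10% of the liver level (-1.90, limma adjusted p = 0.160) and over 5% (-1.54, adjusted p = 0.132), with a common median (-1.62, adjusted p = 0.0566) and without the dim filter (adjusted p = 0.0859). It was lost also without WT array 2, 3, 4 or 5 or any KO array, with differences from -1.74 to -1.56. The GSL30 call was lost with the hepatocyte score as covariate (0.52, limma adjusted p = 0.289), with a common median (0.69, adjusted p = 0.0556), without the dim filter (adjusted p = 0.0599) and without WT array 1 or 3 or GSL30 array 1, 3 or 5. In the covariate fit 0 of all probe sets were called. Gbe1, the glycogen branching enzyme, rose in KO tibialis from 1400 ± 69.1 to 3163 ± 150 (1.15 ± 0.097 SE, limma adjusted p = 0.000699).

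In GSL30, Pygl, the liver form of glycogen phosphorylase, fell from 932 ± 218 to 463 ± 99.6 (log2 difference -0.93 ± 0.18 SE, limma adjusted p = 0.0168). Adcy6, an adenylyl cyclase, fell from 1228 ± 148 to 823 ± 151 (-0.56 ± 0.14 SE, limma adjusted p = 0.0452), and Atp2a2, the slow-fibre and cardiac calcium pump, from 9950 ± 1234 to 6237 ± 1040 (-0.68 ± 0.14 SE, limma adjusted p = 0.0229). These 3 calls were lost with the hepatocyte score as covariate, when the differences were -1.04, -0.40 and -0.71 (limma adjusted p = 0.145, 0.342 and 0.170), so that those of Pygl and Atp2a2 were as large as before. In that fit 0 of all probe sets were called, so these losses are not findings about the 3 genes. Without the dim filter the Adcy6 and Atp2a2 calls were lost (adjusted p = 0.0919 and 0.0534), and with a common median the Adcy6 call (-0.61, adjusted p = 0.0581). Leaving out 1 array ended the Adcy6 call for WT array 1, 2, 3 or 5 or GSL30 array 1, 2 or 3, and the Atp2a2 call for WT array 3 or GSL30 array 2 or 3. Pygm, muscle phosphorylase and the main target of the kinase in muscle, was not called in the 3 muscle comparisons. It averaged 31872 ± 1469 in KO tibialis against 37386 ± 2837 (log2 difference -0.23, limma adjusted p = 0.337), 36039 ± 3041 in KO gastrocnemius against 33277 ± 4475 (0.12, limma adjusted p = 0.749), and 52755 ± 7461 in GSL30 against 44592 ± 4676 (0.24, limma adjusted p = 0.316).

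Likeness of pattern over the 34 arrays followed the split between muscle and liver. Phka1 was most like Pde4dip (r = 0.996), Tmem38a (0.996) and Pkia (0.995), and Phkg1 most like Pde4dip (0.994), Myot (0.994) and Cox8b (0.994), but 1429 and 1392 of 12504 candidate probe sets had r over 0.9 with them. Phkb was nearest to Alpk2 (0.990), Tspan8 (0.990) and Cd24a (0.988), again with 1321 candidate probe sets over 0.9. Phka2 was nearest to Ccni (0.870), BC005537 (0.835) and Rassf5 (0.832), and Phkg2 to Mccc2 (0.857), Tm7sf3 (0.857) and Qsox1 (0.855), with 0 probe sets over 0.9 for either. Within the 26 muscle arrays the nearest genes changed. Phka2 had r = 0.915 with Retn, 0.893 with Thbs2 and 0.874 with Hps3; Phkg2 had 0.839 with Stab2, 0.824 with Dgat2 and 0.823 with Tm7sf3. Phka1 was nearest to Mapk9 (0.819), Hipk2 (0.812) and Amigo1 (0.809), Phkb to Nrbf2 (0.808), Il33 (0.746) and Pdgfra (0.738), and Phkg1 to Eola1 (0.795), Hint3 (0.759) and C030006K11Rik (0.755). These correlations describe arrays that share groups and tissue and carry no test.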

How the data were processed

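RNA from mouse tibialis, gastrocnemius and liver was hybridised to 34 Affymetrix arrays, after TRIzol and RNeasy extraction per the labels' protocols. The deposited value table holds 1 linear intensity per probe set and array; the sources used here do not name the authors' summary algorithm. No detection calls were used, and array number limits the precision. Of 22690 probe sets, 20393 have 1 gene symbol, 691 several and 1606 none; none of the last 2 kinds was named. Values below 0 were set to 0, log2(value + 50) was taken, and 64 control probe sets were left out. The 13576 probe sets above the 40th percentile of mean log2 value were tested on the arrays of each comparison with limma 3.58.1 (lmFit and eBayes, two-sided) in R 4.3.3; called means a Benjamini-Hochberg adjusted p under 0.05. A log2 difference on this scale understates the change of dim probe sets. The fit was tested on simulated data.

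Every member probe set was reported in every comparison. Of the pathway lists, genes called were named (at most the 4 of smallest p where more were called; Gys1 and Pygm beside them, Pygm chosen after its values were seen), and for likeness the 3 genes of highest r. One list of pathway genes is not reported here. The members and lists were chosen with earlier results of these data known. Liver probe sets are those with a mean of at least 1000 in WT liver and 20 times the tibialis mean, a minimum set after the values were seen. The alternatives were other normalizations, pseudocounts, filters, variance models, array weights, arrays left out and the hepatocyte score as covariate. Promoter windows are from RefSeq (GRCm38.p6), where all 5 genes matched by symbol.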

Additional observations from a re-analysis of the deposited data

Results flagged for a closer look

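Of 63 groups of 4 or 5 arrays examined, 8 held a member value whose gap to its nearest neighbour was large for the range of its group (Dixon's criterion, which chance meets in about 1 of 20 groups). Phkb in WT tibialis was 9415.2 on array 4 against 6287 to 6688 on the others, and Phkb in KO liver was 451.4 on array 1 against 249 to 282. Phka1 1435567_at in WT tibialis was 11174.9 on array 2 against 9043 to 9340. Phka1 1422744_at was 3434.1 on array 5 of WT gastrocnemius at 8 months against 5456 to 5787, and 52.2 on array 3 of WT liver against 14.4 to 20.8. Phkg1 1425164_a_at was 4723 on array 3 of WT gastrocnemius at 8 months against 3311 to 3700. Phkg2 was 965.6 on array 2 of that group against 693 to 769, an array that also had the highest liver transcript level of the 8-month arrays (2.70%). Phka2 1430492_at was 55.1 on array 2 of WT gastrocnemius at 3 months against 14.9 to 22.6, the array with the high myofibre score.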

How the results depend on the processing

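In all 4 mutant comparisons 0 member probe sets were called under every alternative run. The lowest and highest adjusted p (limma) were 0.0852 and 0.364 for Phkg1 1422315_x_at, 0.113 and 0.346 for Phkb and 0.0845 and 0.340 for Phka1 1435567_at in KO tibialis, 0.0993 and 0.379 for Phkb in GSL30, and 0.417 and 0.782 for Phka2 1434518_at in KO liver; none of these 5 differences changed sign. The 2 calls between gastrocnemius and tibialis became 0 with quantile normalization, without the dim filter and at the 5% and 10% limits on liver transcripts, and ranged from 0 to 2 with 1 array left out. With all 34 arrays in 1 fit the 2 calls were Phkg1 1425164_a_at and Phkg2 (0.39, limma adjusted p = 0.0301), Phkg1 1422315_x_at having an adjusted p = 0.107, and with array weights Phka2 1434518_at was called as well (0.28, adjusted p = 0.0497). The 7 calls between liver and gastrocnemius became 4, of 5 member probe sets tested, at the 5% limit, and 8, with Phkg2, for a common median (0.55, adjusted p = 0.0105) or array weights (0.34, adjusted p = 0.0181). The 1 call with age became 0 without the dim filter and at both limits, and ranged from 0 to 1 with 1 array left out. The 5% limit leaves 1 WT array of 3 months, assumed to vary like the other arrays; the 10% limit was chosen after seeing the data. The shift in isoform balance between tibialis and liver was 5.36 (alpha) and 4.91 (gamma) with a pseudocount of 200, and 7.93 (gamma) with a pseudocount of 1. Causes of these changes were not tested.

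Over all probe sets the counts of calls moved more, from 190 to between 96 and 335 in KO tibialis, from 20 to between 1 and 306 in KO gastrocnemius, from 1 to between 1 and 32 in KO liver, and from 585 to between 0 and 1093 in GSL30 (0 with the hepatocyte score as covariate). The tissue and age counts ran from 6838 to 11682 around 9417 (liver against tibialis), 79 to 4933 around 3669 (gastrocnemius against tibialis), 6226 to 10263 around 8537 (liver against gastrocnemius) and 14 to 1820 around 840 (age). Counts of differing effects ran from 0 to 16 around 2 (gastrocnemius and tibialis), 67 to 206 around 101 (liver and tibialis) and 7 to 678 around 312 (GSL30 and knockout). With a common median the share of calls that were higher went from 47.4% to 31.2% in KO tibialis, 30% to 10% in KO gastrocnemius, 45.1% to 29.0% between gastrocnemius and tibialis and 42.7% to 62.0% between liver and gastrocnemius. With 1 array left out the mutant counts were 63 to 300, 7 to 25, 1 to 8 and 182 to 772.

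The log2 differences of single probe sets and of the hepatocyte marker score were recomputed, 1998 in all. Of these, 119 had the other sign, 0 of them called and 0 belonging to a difference called as reported. Another 75 lost their call and 7 gained one. No paired analysis was possible because the replicates are numbered in accession order and the numbers in the titles do not tie arrays across groups. The differences of other sign follow, each with the reported value in parentheses.

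In KO against WT gastrocnemius, Phka1 1435567_at (0.022) was -0.010 with quantile normalization, -0.038 with array weights, -0.37 at the 5% limit, -0.17 at the 10% limit, -0.14 with the hepatocyte score as covariate and -0.072 to 0.11 with 1 array left out. Phkg1 1422315_x_at (-0.050) was 0.014 with a common median and -0.095 to 0.020 with 1 array left out. Phka1 1422743_at (-0.035) was 0.029 with a common median and -0.14 to 0.11 with 1 array left out. Phkb 1434511_at (0.13) was -0.071 with array weights, -0.34 at the 5% limit, -0.17 at the 10% limit, -0.081 with the hepatocyte score as covariate and -0.058 to 0.22 with 1 array left out. Phka2 1434518_at (0.0036) was -0.094 with array weights, -0.14 at the 5% limit, -0.15 at the 10% limit, -0.11 with the hepatocyte score as covariate and -0.070 to 0.058 with 1 array left out. Phkg2 1428511_at (-0.28) was 0.055 at the 5% limit. Phka1 1422744_at (0.21) was -0.0058 at the 10% limit and -0.031 with the hepatocyte score as covariate. In KO liver, Phka1 1422743_at (-0.022) was 0.041 with array weights and -0.13 to 0.064 with 1 array left out. Phkb 1434511_at (-0.021) was -0.19 to 0.064 with 1 array left out. In GSL30 gastrocnemius, Phka1 1422744_at (0.0094) was -0.040 with a common median, -0.036 with array weights and -0.13 to 0.072 with 1 array left out. Phkg2 1428511_at (0.029) was -0.018 with a common median, -0.0094 with array weights and -0.050 to 0.11 with 1 array left out. Phkg1 1425164_a_at (-0.036) was -0.078 to 0.049 with 1 array left out. Phkg1 1422315_x_at (-0.099) was -0.16 to 0.0043 with 1 array left out. Between WT gastrocnemius and tibialis, Phka1 1422743_at (-0.031) was 0.070 with quantile normalization, 0.13 with array weights, 0.27 at the 5% limit, 0.25 at the 10% limit and -0.13 to 0.10 with 1 array left out. Phkb 1434511_at (-0.074) was 0.0054 with quantile normalization, 0.13 with array weights, 0.30 at the 5% limit, 0.22 at the 10% limit and -0.17 to 0.11 with 1 array left out. Phka1 1422744_at (-0.076) was 0.072 with array weights, 0.18 at the 5% limit, 0.14 at the 10% limit and -0.23 to 0.064 with 1 array left out. Phka1 1435567_at (-0.25) was 0.11 at the 5% limit. Between 8 and 3 months, Phkb 1434511_at (0.14) was -0.012 with array weights, -0.23 at the 5% limit, -0.15 at the 10% limit and -0.044 to 0.24 with 1 array left out. Phka1 1422743_at (0.085) was -0.22 at the 5% limit, -0.20 at the 10% limit and -0.0033 to 0.17 with 1 array left out. Phka1 1422744_at (0.11) was -0.15 at the 5% limit, -0.10 at the 10% limit and -0.031 to 0.25 with 1 array left out. Phkg2 1428511_at (-0.12) was 0.17 at the 5% limit, 0.10 at the 10% limit and -0.20 to 0.0042 with 1 array left out. Phkg1 1422315_x_at (0.15) was -0.035 at the 10% limit. Phkg1 1425164_a_at (0.19) was -0.0094 at the 10% limit. Phka1 1435567_at (-0.038) was -0.13 to 0.052 with 1 array left out. For the gastrocnemius minus the tibialis knockout effect, Phka1 1422743_at (0.079) was -0.0011 with quantile normalization, -0.080 at the 5% limit, -0.21 at the 10% limit and -0.053 to 0.22 with 1 array left out. Phkg2 1428511_at (-0.14) was 0.0090 with a common median, 0.19 at the 5% limit and 0.080 at the 10% limit. Phka2 1434518_at (0.082) was -0.065 at the 5% limit and -0.069 at the 10% limit. Phka1 1435567_at (0.37) was -0.024 at the 5% limit. For the liver minus the tibialis knockout effect, Phka1 1422743_at (0.092) was -0.026 with quantile normalization and -0.040 to 0.19 with 1 array left out. Phka1 1422744_at (0.061) was -0.042 with quantile normalization, -0.020 with a pseudocount of 1 and -0.031 to 0.21 with 1 array left out. For the GSL30 minus the knockout effect, Phkg1 1425164_a_at (0.048) was -0.065 with a common median and -0.011 to 0.13 with 1 array left out. Phka1 1435567_at (0.10) was -0.010 with a common median. Phkg1 1422315_x_at (-0.049) was 0.10 at the 5% limit, 0.13 at the 10% limit and -0.12 to 0.054 with 1 array left out. Phkg2 1428511_at (0.31) was -0.026 at the 5% limit. Phka1 1422744_at (-0.20) was 0.015 at the 10% limit. In KO tibialis, Phka1 1422743_at (-0.11) was -0.21 to 0.018 with 1 array left out.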
